A study of Mus musculus with 4 samples.

Results

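The CCR4-NOT complex is the main deadenylase of mammalian cells, which shortens poly(A) tails and so starts the silencing and decay of mRNA. The data presented here cover 10 genes of this machinery, chosen by symbol, among the 16861 genes listed in RNA-seq libraries of mouse oocytes: the subunits Cnot1, Cnot2, Cnot3, Cnot6, Cnot6l, Cnot7 and Cnot8, the adaptor Btg4, the RNA-binding protein gene Zfp36l2 and the poly(A)-binding protein gene Pabpn1l. All 10 were listed in every library. Germinal vesicle (GV) oocytes, which are fully grown and still arrested in the first meiotic prophase, were taken from 3-week-old female C57BL/6J mice with no genetic change or treatment that set the groups apart. They were freed of cumulus cells and sorted under the microscope, after Hoechst staining in medium with milrinone, by whether the chromatin formed a ring around the nucleolus. In NSN (non-surrounded nucleolus) oocytes it does not, and in SN (surrounded nucleolus) oocytes it does. The labels speak of 3 samples per configuration, of which 2 each were analysed here. Each library was a pool of 15 oocytes, and the labels do not say whether the pools came from separate mice, so that p-values measure the spread between these libraries, which may be technical.

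Full-grown oocytes store mRNA for use after transcription has stopped, and many of these messages keep a short tail until meiosis resumes. During maturation, BTG4 brings the catalytic subunit CNOT7 or CNOT8 to messages bound by the cap-binding protein eIF4E, and PABPN1L works with BTG4 on the poly(A) tail, so that a large part of the maternal mRNA is lost. ZFP36L2, which binds AU-rich elements and recruits CCR4-NOT, is known to be needed in mouse oocytes for the transcriptional silencing that goes with the SN configuration. The comparison of NSN with SN oocytes asks how the messages for this machinery stand before maturation begins.

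The libraries held 17069772 to 17998361 read pairs, a total recovered from the values, and the listed genes took 97.9% to 98.0% of them. Values are FPKM, that is read pairs scaled to gene length in kilobases and to the library total, as the authors deposited them. A gene 1 kb long with 3 read pairs would have 0.167 to 0.176 FPKM, and such limits cover counting error only because PCR copies were not removed by molecular identifiers. All 12 oocyte markers were listed, the lowest at a mean of 18.5 FPKM, and their summed FPKM was 21512 to 22759 in NSN and 14869 to 15605 in SN libraries. Of 17 granulosa and cumulus cell markers, 13 were listed, with summed FPKM of 35.01 to 40.6 in NSN and 43.5 to 45.1 in SN libraries, most of it from Esr2 and Cyp19a1. Without those genes the sum was 4.16 to 6.24 FPKM, and Foxl2, Amh, Amhr2 and Tnfaip6 were not among the listed genes. The part of these markers in the results below was not tested. FPKM give the share of a message in its library and hold no measure of RNA per oocyte, so fewer molecules per oocyte and fewer contributing oocytes cannot be told apart. The cDNA was primed with oligo(dT) on poly(A) tails, and tail length was not measured.

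Because deadenylation acts on the 3′ end, the annotated ends of the messages are shown first. Each line gives the 30 bases of the GRCm39 genome, from the Ensembl canonical transcript in GENCODE, that end with the last poly(A) signal (AATAAA or ATTAAA) of the 3′ untranslated region. Capitals mark that signal, any other such signal in these bases (Cnot3 only), and any cytoplasmic polyadenylation element, searched as TTTTAT or TTTTAAT on the transcript strand. The genes shown are the adaptor, the CAF1-type catalytic subunits, the poly(A)-binding partner, and Cnot6l and Cnot3. Those last genes were the members that passed the threshold of the test on the deposited FPKM below.
Btg4, chr9:51030861-51030890, plus strand: tgaattataggaaggaagacttgaAATAAA
Cnot7, chr8:40943982-40944011, minus strand: acaacagtatggaagtgtaagatgAATAAA
Cnot8, chr11:58009373-58009402, plus strand: ttatttatgtTTTTAATtttgtaaAATAAA
Pabpn1l, chr8:123346224-123346253, minus strand: tgtgttaatagtagaatgtaaattATTAAA
Cnot6l, chr5:96218211-96218240, minus strand: cccacttttcctttccctgtaggcAATAAA
Cnot3, chr7:3664667-3664696, plus strand: aaacgctaatgcacataaAATAAAAATAAA

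The signal started 20 to 25 bases from the transcript end in Cnot3, Cnot6l, Cnot8 and Pabpn1l, whereas in Btg4 and Cnot7 it lay 291 and 103 bases from the end, so these annotated ends need not be those used in oocytes. In the 100 bases before this signal, Btg4 and Cnot8 each held 1 cytoplasmic polyadenylation element, and the other 8 members held none. Over the 8431 tested genes with a signal and that much sequence before it, 19.4% held at least 1. In the last 100 bases of the transcript, Btg4, Cnot7 and Cnot8 held one, against 18.4% of 9135 tested genes. The AU-rich core TATTTAT, the kind of site that the ZFP36 family binds, was found in the last 100 bases of Cnot8 only, against 4.13% of those genes, and there it lay 2 bases before TTTTAAT, with no overlap. Over the whole 3′ untranslated region, Zfp36l2 and Cnot6l each held 3 copies of TATTTAT, in 2049 and 6847 bases. Cnot6 held 2 copies, and Cnot3, Cnot7 and Cnot8 held 1 each. These whole-region counts were not set against those of all tested genes. These matches describe letters and are not evidence of sites in use.

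The members covered a wide range of levels. Btg4 was the most abundant by far, ranked 14 among all 16861 genes by mean FPKM, and took 0.644% to 0.803% of the read pairs of a library. Below it came Cnot8, Pabpn1l and Cnot7 at ranks 500, 613 and 751, then Cnot2 (rank 1493), Cnot6l (2319), Cnot3 (4382), Cnot1 (4991) and Cnot6 (8485), and Zfp36l2 at rank 13642. Neighbours in this order did not overlap within either configuration, except Cnot3 and Cnot1, which overlapped in the NSN libraries. The mean FPKM of Btg4 was 25.2 times that of Cnot8, which is a comparison between genes per length. The order among the others depended in part on the gene length. The smallest length that fits the FPKM was 1279 bases for Cnot7 and 1411 for Cnot3, against 4707 and 3532 bases in their canonical transcripts. A whole multiple would fit as well, and would raise the read pairs and the levels at canonical length. Canonical lengths, a choice made after seeing the data, were used with the read pairs of the smallest lengths. The mean level of Cnot7 was then 23.6 in place of 86.9 FPKM, at the level of Cnot6l (24.2). Cnot3 at 3.21 moved below Cnot1 at 5.79, an order that depends on this choice of read pairs. Of the canonical Cnot7 length, 82.8% lies in exons shared with other genes, so 23.6 may understate its level. Btg4, Cnot8 and Pabpn1l kept the first 3 places.

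**Figure D1:**
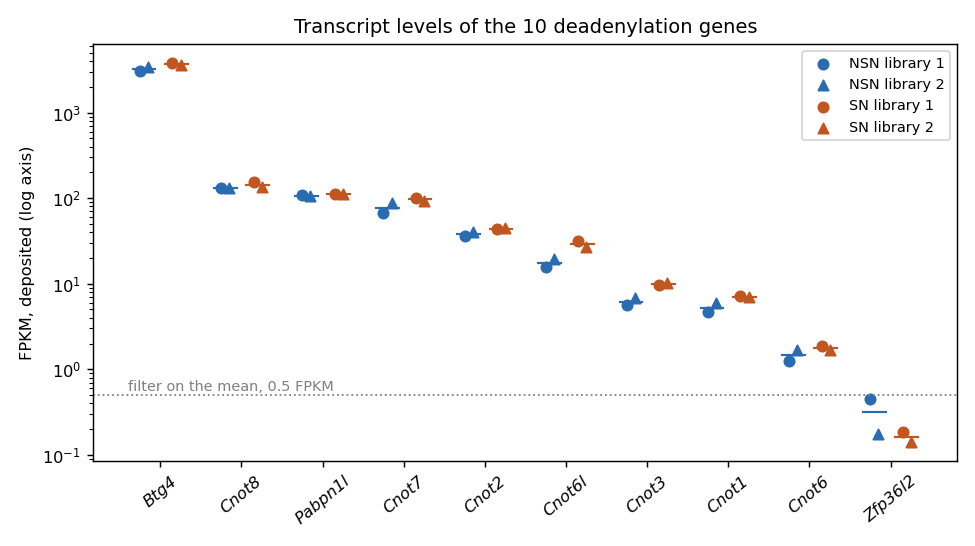
Deposited FPKM of the 10 genes (log axis) in each library, with blue points for NSN and orange points for SN libraries, circles for library 1, triangles for library 2, and short lines at the means of the 2 libraries. Btg4 lies at 3051 to 3804 FPKM, the CCR4-NOT subunits lie between 1.24 and 153 FPKM, and Zfp36l2 lies below the dotted line of the filter in every library.

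Of the 10 members, 9 passed the filter of a mean of 0.5 FPKM and were tested with limma among 11672 genes. Cnot6l and Cnot3 were called higher in SN than in NSN oocytes, and no tested member was called lower. These 2 of 9 stand beside 7.93% of all tested genes called, 5.95% higher and 1.98% lower in SN oocytes. Both SN libraries lay above both NSN libraries for all 9 tested members, while the same was true of 44.8% of all tested genes. The median log2 fold change of the 9 members was 0.23, against 0.14 for all tested genes, and Zfp36l2 is in neither the count nor the median. When each library was divided by the median ratio of its genes to their mean, the median over all genes became 0.005 and that over the members 0.11, and 3 of the 9 members (Cnot1, Cnot3 and Cnot6l) kept both SN libraries above both NSN libraries, against 29.4% of all tested genes. With this scaling of the FPKM no member was called, against 2.2% of all genes (0.668% higher and 1.53% lower). Voom on the recovered read pairs with median scaling called Cnot6l and Cnot3 (adjusted p = 0.0045 and 0.048 by limma). That fit called 1720 of 11656 genes. For any one gene, exact permutation of 4 libraries gives no two-sided p under 0.333, and the p-values of limma rest on the variance it pools over genes.

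Cnot6l encodes a CCR4-type exonuclease of the complex. It had 15.8 and 19.4 FPKM in the NSN libraries and 31.5 and 27.2 FPKM in the SN libraries. Both SN libraries were clearly above both NSN libraries, and the gap between the groups was wider than that within either. The means were 17.6 ± 2.58 and 29.3 ± 3.00 FPKM (SD, n = 2 each), a ratio of 1.67, and the log2 fold change had an estimate of 0.72 and an SE of 0.13 (adjusted p = 0.039 by limma). These values rest on 2422 to 4734 read pairs. After median scaling it was 0.57 (adjusted p = 0.059 by limma), and with a correction for gene length 0.48 (0.068). Cnot6l (ENSMUSG00000034724.20) lies on the minus strand of chromosome 5 of GRCm39 from 96218192 to 96312030, and none of its exons is shared with another annotated gene.

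Cnot6, its paralogue, which encodes the other CCR4-type nuclease, stood far lower. It had 1.24 and 1.67 FPKM in the NSN libraries and 1.88 and 1.68 FPKM in the SN libraries, on 124 to 184 read pairs. The second library of each configuration was nearly at the same level, and the log2 fold change of 0.23 had a 95% interval of -0.20 to 0.65 (limma adjusted p = 0.42). Cnot6l exceeded Cnot6 by 12.7 and 11.6 times in the NSN libraries and by 16.7 and 16.2 times in the SN libraries. This ratio is taken within a library and so does not depend on how libraries are scaled. Its log2 value was 3.60 ± 0.09 in NSN and 4.04 ± 0.03 in SN libraries (SD, n = 2 each), a difference of 0.44, and the groups did not overlap (exact permutation test, two-sided p = 0.333, the smallest possible). Cnot6 and Cnot6l together had 17.0 and 21.1 FPKM in NSN and 33.3 and 28.9 FPKM in SN libraries. Cnot6 (ENSMUSG00000020362.15) lies on the minus strand of chromosome 11 from 49561883 to 49604504.

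The CAF1-type catalytic subunits Cnot7 and Cnot8, the direct partners of BTG4, showed smaller differences. Cnot7 had 67.8 and 86.7 FPKM in the NSN libraries and 101 and 91.8 FPKM in the SN libraries. The SN libraries were higher, but NSN library 2 lay closer to SN library 2 than to NSN library 1. The estimate was 0.33 on the log2 scale, with an SE of 0.13 (adjusted p = 0.14 by limma). Without NSN library 2 it was called at 0.51 (adjusted p = 0.027 by limma), and without NSN library 1 the estimate was 0.15. Of its canonical transcript, 82.8% lies in exons shared with Vps37a or Zdhhc2, so its read pairs, 1509 to 2215 and counted without strand, are uncertain. Cnot7 (ENSMUSG00000031601.18) lies on the minus strand of chromosome 8 from 40943885 to 40968888.

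Cnot8 had 132 and 131 FPKM in the NSN libraries and 153 and 135 FPKM in the SN libraries. SN library 2 lay close to both NSN libraries and SN library 1 alone stood higher, and the log2 fold change of 0.12 (95% interval -0.09 to 0.33, limma adjusted p = 0.37) became -0.031 after median scaling. Cnot8 exceeded Cnot7 by 1.95 and 1.52 times in NSN and by 1.51 and 1.47 times in SN libraries. The log2 ratio was lower in SN by 0.21 in the mean, and NSN library 2 (0.60) lay next to SN library 1 (0.59), far below NSN library 1 (0.96) (exact permutation test, two-sided p = 0.333). Without NSN library 1 the difference was -0.027. With canonical lengths the ratio of Cnot8 to Cnot7 was 5.15 to 6.86. The canonical length of Cnot7 includes its shared exons, and the methods name no option to count read pairs shared between genes. The read pairs of Cnot7 also rest on the smallest length that fits its FPKM. This ratio may therefore be too high. Cnot8 (ENSMUSG00000020515.15) lies on the plus strand of chromosome 11 from 57994748 to 58031515.

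**Figure D2:**
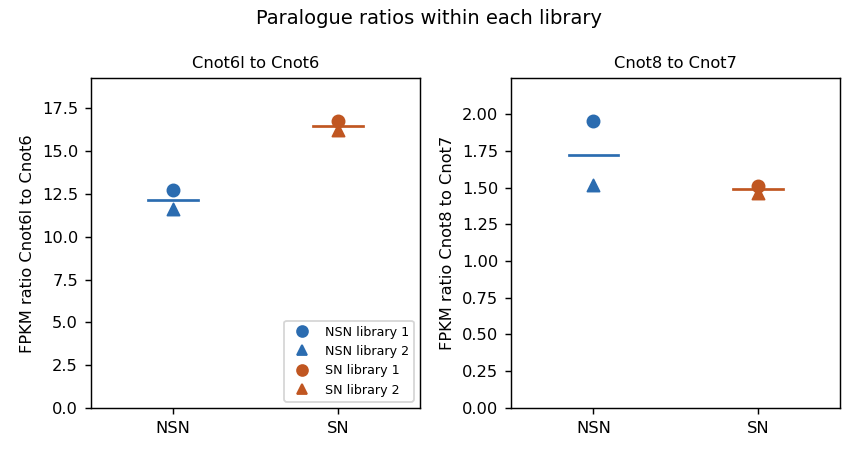
Ratio of the FPKM of Cnot6l to Cnot6 (left) and of Cnot8 to Cnot7 (right) in each library, on axes that start at 0, with circles for library 1, triangles for library 2 and lines at the geometric means. The Cnot6l to Cnot6 ratio is 16.2 and 16.7 in SN against 11.6 and 12.7 in NSN libraries, while for Cnot8 to Cnot7 NSN library 2 lies next to the SN libraries.

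Among the subunits that hold the complex together, Cnot3 rose. CNOT3 and CNOT2 form the NOT module, which helps to dock the complex on target messages, and CNOT1 is the scaffold on which the nucleases assemble. Cnot3 had 5.58 and 6.81 FPKM in the NSN libraries and 9.55 and 10.2 FPKM in the SN libraries. At the smallest length that fits, these are 137 to 259 read pairs. The SN libraries were close to each other and both well above the NSN libraries. The means were 6.19 ± 0.87 and 9.87 ± 0.46 FPKM (SD, n = 2 each), a ratio of 1.59, which is 0.64 on the log2 scale with an SE of 0.13 (adjusted p = 0.044 by limma). After median scaling it was 0.49 (adjusted p = 0.068 by limma). Cnot3 (ENSMUSG00000035632.18) lies on the plus strand of chromosome 7 from 3648023 to 3664713, and 18.3% of its canonical transcript overlaps Leng1 or Mir3572.

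Cnot1 had 4.65 and 5.88 FPKM in the NSN libraries and 7.23 and 6.91 FPKM in the SN libraries. Both SN libraries were higher, but NSN library 2 was closer to SN library 2 than to NSN library 1, and the log2 estimate of 0.40, with an SE of 0.14, missed the threshold (adjusted p = 0.12 by limma). Voom on the recovered read pairs gave 0.43 (adjusted p = 0.025 by limma), in a fit that called 19.8% of all genes, whereas correction for the gene length, which for Cnot1 was 8392 bases, lowered it to 0.16. Without NSN library 2 it was 0.55 (limma adjusted p = 0.048), without NSN library 1 it was 0.25 (0.41), and without SN library 1 or 2 it was 0.37 and 0.43 (0.30 and 0.25). Cnot2 had 35.99 and 40.5 FPKM in NSN and 43.2 and 44.5 FPKM in SN libraries, with a log2 fold change of 0.20 (95% interval -0.03 to 0.42, limma adjusted p = 0.20). By FPKM, Cnot2 thus stood several times above Cnot3, its partner in the NOT module, in every library. The size of this gap depended on the gene length, since canonical lengths gave mean levels of 42.6 for Cnot2 and 3.21 for Cnot3. These levels use the read pairs of the smallest length that fits the FPKM. Cnot1 (ENSMUSG00000036550.18) lies on the minus strand of chromosome 8 from 96445562 to 96534123, and Cnot2 (ENSMUSG00000020166.17) on the minus strand of chromosome 10 from 116321048 to 116418117. Other annotated genes overlap 7.80% of the canonical transcript of Cnot1 and 17.8% of that of Cnot2.

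Btg4, the adaptor that ties the nucleases to translated maternal mRNA, was already at its high level in NSN oocytes. It had 3051 and 3449 FPKM in the NSN libraries and 3804 and 3604 FPKM in the SN libraries, on 112107 to 137090 read pairs. The SN libraries were above the NSN libraries, but NSN library 2 was closer to SN library 2 than to NSN library 1. The means were 3249.8 ± 282 and 3704 ± 142 FPKM (SD, n = 2 each), and the log2 fold change was 0.19 (95% interval -0.01 to 0.39, limma adjusted p = 0.17). After median scaling it was 0.04, and the groups overlapped. After quantile normalization it was 0.37 (limma adjusted p = 0.069). Btg4 (ENSMUSG00000032056.12) lies on the plus strand of chromosome 9 from 50972201 to 51031175. In pattern over the 4 libraries, the nearest of 5518 genes with a mean of at least 5 FPKM were Rnf170, Katnal2 and Anks4b, at distances of 0.011, 0.019 and 0.019 on the centred log2 scale, and 269 genes lay within 0.1, so many genes share this pattern over so few libraries.

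Pabpn1l encodes the oocyte poly(A)-binding protein that partners BTG4. It had 108 and 105 FPKM in the NSN libraries and 111 and 113 FPKM in the SN libraries. The libraries thus differed little, and the log2 fold change of 0.07 (95% interval -0.10 to 0.25, limma adjusted p = 0.52) became -0.08 after median scaling. That interval leaves room for a change of up to 0.25 on the log2 scale. Pabpn1l (ENSMUSG00000069867.4) lies on the minus strand of chromosome 8 from 123346210 to 123349478, with no exon shared with another annotated gene.

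Zfp36l2 was barely detected. It had 0.456 and 0.174 FPKM in the NSN libraries and 0.183 and 0.142 FPKM in the SN libraries, which correspond to 28 and 11 read pairs in NSN and 11 and 9 read pairs in SN libraries. NSN library 1 stood apart from the other three libraries, and the groups overlapped, since NSN library 2 lay below SN library 1. Its mean was under the filter, so it was not tested in the comparison. With all listed genes in the fit, its log2 fold change was -0.28 (limma adjusted p = 0.40), on a scale that understates changes at such levels. Its relatives were as low. Zfp36 had 0.20 to 0.35 FPKM and Zfp36l1 0.02 to 0.08 FPKM, and both were under the filter. Zfp36l2 (ENSMUSG00000045817.10) lies on the minus strand of chromosome 17 from 84491132 to 84495382 and shares 2.82% of its exon bases with Gm36279. After median scaling its groups no longer overlapped, with the SN libraries lower. Genes near it in pattern were Gm32996 and Nherf1, at distances of 0.088 and 0.11, a likeness that rests on few read pairs.

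**Figure D3:**
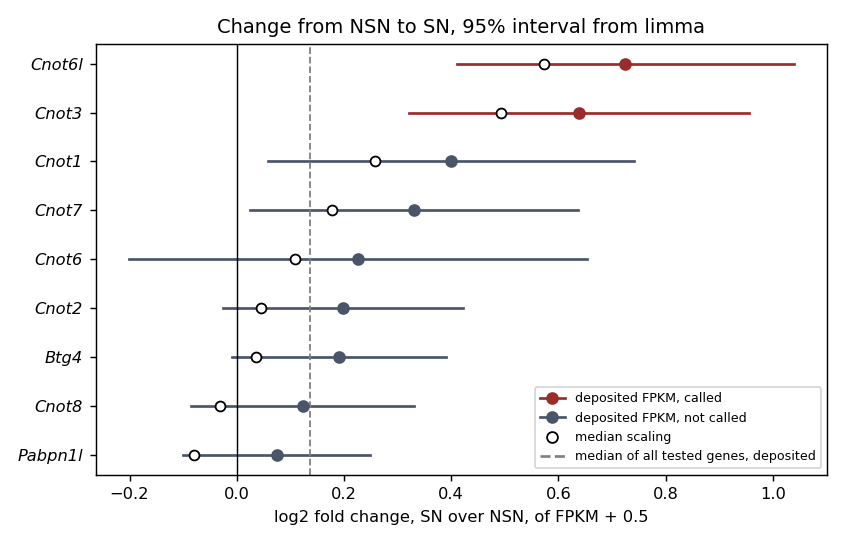
Log2 fold change of FPKM + 0.5 in SN over NSN oocytes for the 9 tested members (2 libraries per group), with filled points and lines for the deposited FPKM and their 95% limma interval, open points after median scaling, and a dashed line at the median of all tested genes (0.14). The intervals of Cnot6l and Cnot3 lie wholly to the right of the dashed line, and median scaling moves every member to the left.

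The order of the libraries within a configuration was part of these results. Of the 9 tested members, 7 were lower in NSN library 1 than in NSN library 2, as were 60.9% of all tested genes. Leaving out NSN library 1 gave log2 fold changes of 0.58 for Cnot6l and 0.51 for Cnot3 (limma adjusted p = 0.089 and 0.13), and leaving out NSN library 2 gave 0.87 and 0.77 (0.011 and 0.017). Without SN library 1 or 2, Cnot6l had 0.62 and 0.83 (limma adjusted p = 0.094 and 0.089) and Cnot3 0.68 and 0.59 (0.10 and 0.14). Without NSN library 2 the fit called 14.4% of all genes and 4 members (Cnot1, Cnot3, Cnot6l and Cnot7). In these fits the library left alone in its group is assumed to vary like the other group. Thus the rise of Cnot6l and Cnot3 kept its direction without any library, but the call held only without NSN library 2.

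**Figure D4:**
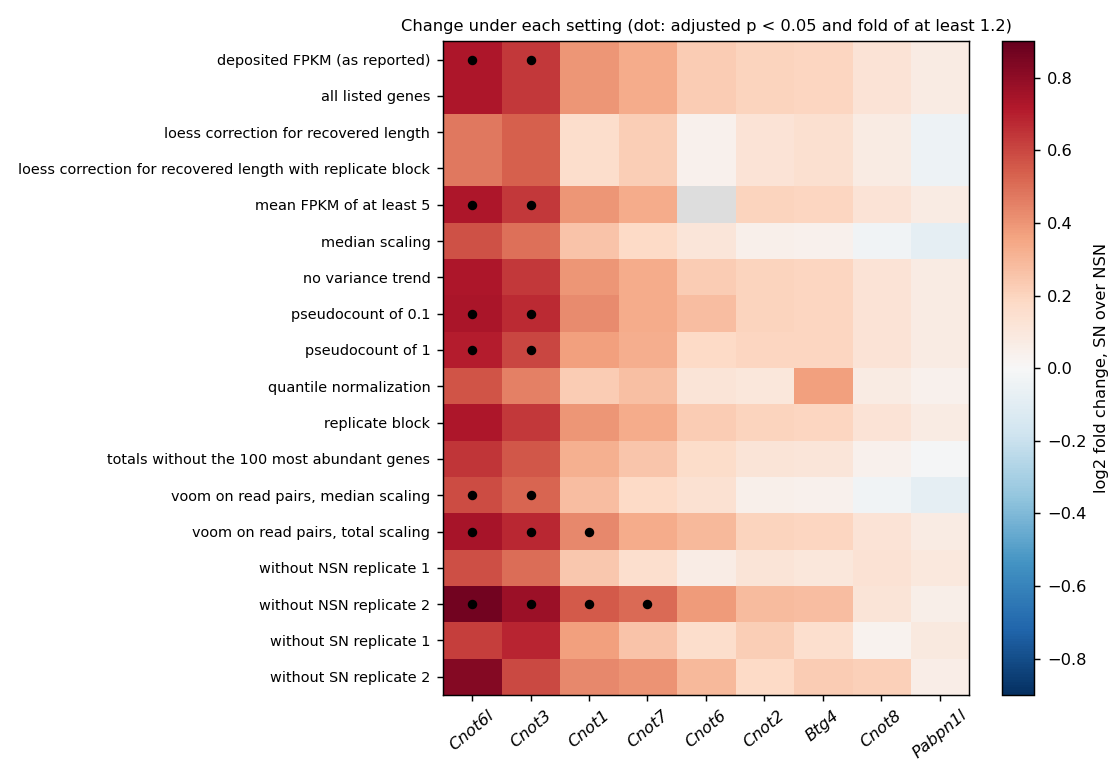
Log2 fold change of the 9 tested members (columns) under each setting (rows), from blue (lower in SN) to red (higher in SN), with a dot where the adjusted p was under 0.05 and the fold at least 1.2, and grey where the gene was not tested. Cnot6l and Cnot3 are red in every row, while Pabpn1l and Cnot8 turn blue in several.

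Calls among the other deadenylation and decay genes went both ways and made up 15.3% of those tested, against 7.93% of all tested genes. Of 90 other genes in 8 lists, 84 were listed, 72 were tested, 7 were called higher and 4 lower in SN oocytes, beside 5.95% higher and 1.98% lower among all tested genes, and their median log2 fold change was 0.18 against 0.14 for all tested genes. The genes called were Cnot11, Papolg, Dcp1a, Dcp2, Lsm3, Lsm5 and Exosc3 (higher) and Pabpc1l, Pabpc4, Lsm1 and Skic8 (lower). After median scaling, 1 was called higher (Lsm3) and the same 4 were called lower, beside 0.668% and 1.53% of all tested genes. Each of the 11 lost its call without at least 1 library, and the number called in the lists was 0 without NSN library 1, 15 without NSN library 2, 1 without SN library 1 and 0 without SN library 2, where all genes called numbered 0, 1685, 148 and 11.

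Of the 4 other CCR4-NOT subunits, Cnot11 rose. CNOT11 and CNOT10 form a separate module at the N-terminal end of CNOT1. Cnot11 had 19.6 and 19.0 FPKM in the NSN libraries and 29.0 and 25.8 FPKM in the SN libraries, which is 0.49 on the log2 scale with an SE of 0.10 (adjusted p = 0.043 by limma, and 0.095 after median scaling). Cnot4, Cnot9 and Cnot10 did not pass the threshold, and Cnot9 and Cnot10 had log2 fold changes below 0. None of the 3 tested adaptors of the BTG and TOB family other than Btg4 was called, and the most abundant of them were Tob2 at 7.85 to 9.85 FPKM and Btg2 at 5.45 to 7.54 FPKM. None of the 8 tested genes listed as deadenylases outside CCR4-NOT was called either, among them Pan2 and Pan3, which form the deadenylase that trims long tails, and Parn. Among the mRNA-binding recruiters, 0 of 11 tested were called. The counts in these lists stand beside 7.93% of all tested genes, a share at which lists this small would hold few calls or none. The most abundant recruiter, the m6A reader Ythdf2, had 38.8 and 30.9 FPKM in NSN and 26.2 and 19.4 FPKM in SN libraries. The log2 fold change of Ythdf2 was -0.61. Its groups did not overlap, and its adjusted p of 0.070 by limma missed the threshold, while voom gave 0.0069 and leaving out 1 library 0.026 to 0.21.

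Of 14 tested genes for poly(A)-binding proteins and poly(A) polymerases, 1 was called higher and 2 lower, beside 5.95% and 1.98% of all tested genes. Pabpc1l, the cytoplasmic poly(A)-binding protein of oocytes, fell from 97.3 and 89.8 FPKM in the NSN libraries to 71.6 and 65.0 FPKM in the SN libraries, -0.45 on the log2 scale (by limma, adjusted p = 0.042, and 0.048 after median scaling). Pabpc4, a related poly(A)-binding protein, fell from 84.5 and 82.4 to 65.0 and 66.3 FPKM, -0.34 on the log2 scale (by limma, adjusted p = 0.047, and 0.048 after median scaling). Papolg, a nuclear poly(A) polymerase, rose from 34.4 and 38.3 to 48.6 and 51.4 FPKM, 0.46 on the log2 scale (by limma, adjusted p = 0.044, and 0.087 after median scaling). The 2 tested terminal uridylyltransferases were not called.

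Downstream of deadenylation, decapping removes the cap before decay from the 5′ end. Of 15 tested genes, 4 were called higher and 1 lower, beside 5.95% and 1.98% of all tested genes, and after median scaling Lsm3 and Lsm1 were still called. Dcp2, the decapping enzyme, rose from 3.18 and 3.73 to 6.34 and 5.62 FPKM, 0.71 on the log2 scale (by limma, adjusted p = 0.042), and Dcp1a, its activator, rose from 68.9 and 78.5 to 98.8 and 96.1 FPKM, by 0.40 (0.048). Of the LSM proteins, which bind oligoadenylated 3′ ends, Lsm3 rose from 56.6 and 59.7 to 97.3 and 90.6 FPKM (log2 fold change 0.69, limma adjusted p = 0.036) and Lsm5 from 91.7 and 95.8 to 127 and 119 FPKM (0.39, 0.043). Lsm1, which distinguishes the cytoplasmic LSM ring from the nuclear one, fell from 10.9 and 8.93 to 5.90 and 4.76 FPKM, -0.84 on the log2 scale (by limma, adjusted p = 0.039). The groups did not overlap in any of these. For decay from the 3′ end, 1 of 15 tested genes was called higher, the exosome subunit Exosc3 (0.38, limma adjusted p = 0.048), and 1 lower, Skic8 of the SKI complex, which fell from 4.50 and 3.73 to 2.11 and 1.75 FPKM (-0.92, limma adjusted p = 0.038).

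**Figure D5:**
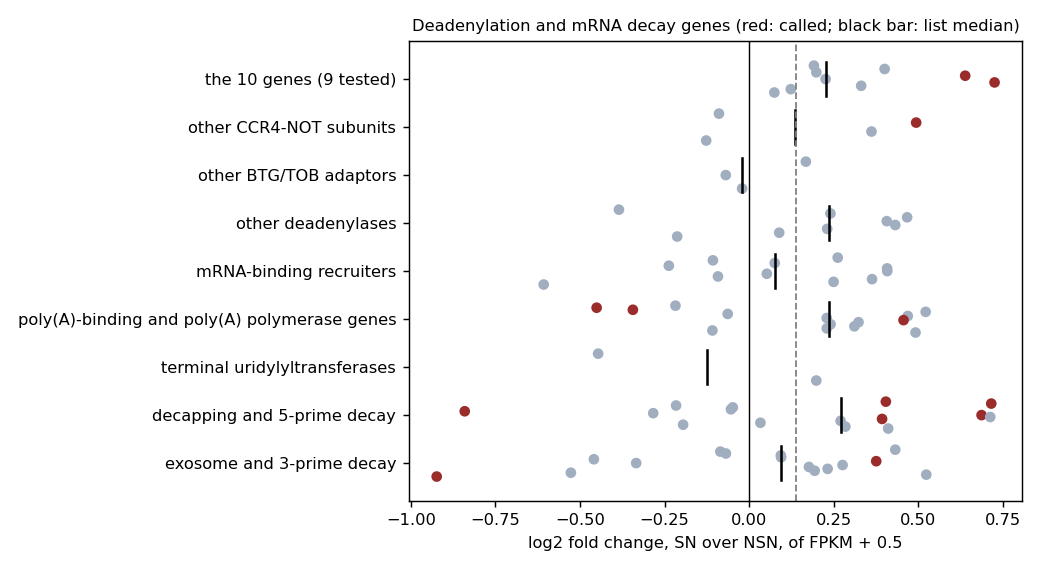
Log2 fold change of FPKM + 0.5 in SN over NSN oocytes for each tested gene (points, red where called) of the members and the 8 other lists, with black bars at the list medians and a dashed line at the median of all tested genes (0.14). Called genes lie on both sides of 0 outside the members, from -0.92 (Skic8) to 0.71 (Dcp2).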

How the data were processed

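Germinal vesicle oocytes were profiled by Smart-seq2 in 2 NSN and 2 SN libraries of 15 oocytes each. As stated in the methods and the submitters' notes, reads were trimmed with Trim Galore 0.6.10, mapped to GRCm39 with HISAT2, and counted as read pairs on exons with featureCounts, without strand. The authors deposited FPKM made with a script of their own. The total of each library was taken as the smallest at which 5 mitochondrial tRNAs, given their annotated lengths, had whole read pairs. The smallest whole gene length up to 30000 bases that gave whole read pairs (tolerance 0.001) in the 4 libraries was then found for 99.8% of the 16861 listed genes, and a whole multiple of it would fit as well. The limma test (version 3.58.1, R 4.3.3) used log2(FPKM + 0.5) with a variance trend over the 11672 genes averaging 0.5 FPKM or more. It was tested on simulated read pairs. A call needed a Benjamini-Hochberg adjusted p under 0.05 over all tested genes and a fold of at least 1.2, and all p-values are two-sided. Positions, exons and transcripts came from GENCODE vM39 on GRCm39, a later release than that of the authors. The rule for named genes took the 10 members, the called genes of the pathway lists, cell type markers, and the 3 genes nearest Btg4 and Zfp36l2 in pattern, of which 1 is not reported here. Ythdf2, Tob2, Btg2, Zfp36, Zfp36l1, Cnot4, Cnot9, Cnot10, Pan2, Pan3 and Parn were named after their values were seen. Members and lists were chosen with earlier results of these data known. The alternatives were other pseudocounts, filters, scalings, variance models and thresholds, a replicate block, a length correction, voom on recovered read pairs and leaving out each library. Plots and other values were made with Python 3.11.15, pandas 2.3.3, scipy 1.17.1 and matplotlib 3.10.9.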

Additional observations from a re-analysis of the deposited data

How the results depend on the processing

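The number of called members, 2 (Cnot3 and Cnot6l), was 0 without a variance trend, with every listed gene in the fit, after median scaling, quantile normalization or the length correction (with or without the replicate block, the former chosen after seeing the data), with the replicate block and with totals that leave out the 100 most abundant genes. It stayed 2 with the other pseudocounts, a mean FPKM of at least 5, either other threshold, and voom with median scaling. With voom at total scaling it was 3, with Cnot1 added. Among all genes the 926 calls became 0 (all listed genes), 0 (no variance trend), 0 (length correction with the replicate block), 118 (length correction), 257 (median scaling), 230 (quantile normalization), 257 (totals without the 100 most abundant genes), 422 (replicate block), 1496 (mean FPKM of at least 5), 1720 and 2313 (voom with median and total scaling), 540 (fold of at least 1.5) and 2370 (adjusted p under 0.1), and 0 to 1685 with a library left out. At an unadjusted p under 0.05 there were 4092, 3449 and 2766 genes in the first 3 of these. The 11 called pathway genes became 0, 0, 0, 1, 5, 4, 5, 6, 17, 17, 26, 4 and 22 in the same order, and 0 to 15 with a library left out. Of the calls on the deposited FPKM 75.1% were higher in SN, against 30.4% after median scaling, 32.2% after quantile normalization or length correction, 63.0% with the replicate block and 44.4% with totals that leave out the 100 most abundant genes. The replicate differences of NSN and SN correlated at -0.07 across genes. With so few libraries this value cannot show whether libraries of the same number share an origin, which the labels do not give. Under the block Cnot6l and Cnot3 had adjusted p-values of 0.052 and 0.057 by limma. Cnot8 turned to -0.031 after median scaling and to -0.032 with voom at median scaling. Pabpn1l turned to -0.080 in both, to -0.046 with the length correction (with or without the block) and to -0.0096 with totals without the 100 most abundant genes. Over these alternatives other than leaving out a library, the 9 members kept direction and side of the threshold in 110 values, lost a call in 16, gained one in 1 and turned in 7. All 16 lost calls were those of Cnot6l and Cnot3, the only members called. Most of the 110 values came from members that were not called and stayed so. Both paralogue ratios kept their direction with a pseudocount, as ratios of read pairs and without any 1 library, and the other settings were not run on them. With a library left out the Cnot6l to Cnot6 difference was 0.38 to 0.51 and that of Cnot8 to Cnot7 -0.39 to -0.027. The cause of these moves was not tested.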
